A study of Mus musculus with 51 samples.

Results

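The genes described here are 10 genes of the eosinophil and of its recruitment into the lung: the granule genes Rnase2a (also written Ear11), Ear1, Ear2, Epx and Prg2, the surface receptors Siglecf, Ccr3 and Il5ra, and the eotaxins Ccl11 and Ccl24. They were taken from the array by gene symbol, and 8 of the 10 had a probe set, 1 each, among the 22206 probe sets of the array. Ear1 and Ear2 matched no probe set by symbol or by gene ID and were not analysed here.

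Eosinophils arise in the bone marrow under IL-5, leave the blood towards eotaxins that bind the receptor CCR3, and store cationic proteins and ribonucleases in their granules. The granule proteins are made largely during maturation in the marrow. In allergic airway inflammation, IL-4 and IL-13 signal through STAT6 and induce eotaxins in macrophages, epithelium and fibroblasts.

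RNA was measured in perfused and lavaged lungs of male mice aged 6 to 8 weeks, 48 h after the last of 4 intranasal exposures (days 15, 16, 19 and 20). All mice of all groups, controls included, had 1% MDI (methylene diphenyl diisocyanate, used to make polyurethane and a cause of occupational asthma) put on the skin on 2 occasions beforehand. MDI groups then received MDI joined to glutathione (MDI-GSH) through the nose, and control groups a solution in which MDI and glutathione had been reacted apart. Below, "with MDI" and "without MDI" refer to these nasal exposures. The groups were BALB/c MDI (3 arrays) and BALB/c control (3), B-cell deficient MDI (7) and B-cell deficient control (9), C57BL/6 MDI with crofelemer (3) and C57BL/6 control with crofelemer (5), and C57BL/6 MDI (13) and C57BL/6 control (6). Crofelemer, a chloride channel inhibitor, was given intranasally at 4 mg/kg, 4 h before each respiratory exposure. The B-cell deficient line, B6.129S2-Ighmtm1Cgn/J, carries a disrupted immunoglobulin heavy chain mu gene. Another 2 arrays had labels that contradict each other on treatment and entered no comparison, and C57BL/6 MDI array 14 was kept although its source name reads control. The labels do not say that each array is a separate mouse, so p-values measure the spread between arrays, which may in part be technical, and the number of arrays limits the precision. For each gene 1 spread was estimated over all 8 groups together. The SE and p-value of a comparison therefore also reflect the spread within groups outside it, most of all for the groups of 3 arrays.

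Promoters of 7 of the 10 genes were matched in RefSeq (GRCm38.p6), each as 250 bases before to 50 after the gene's start. Those of Rnase2a, Epx, Ccr3 and Il5ra are printed because these 4 genes span the range of responses to MDI without crofelemer, from the largest difference (Rnase2a) to the smallest (Epx). Capitals mark matches to a STAT6-type palindrome (TTCNNNNGAA, which reads the same on both strands) and to a GATA-type word (AGATAA, searched on both strands).

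Rnase2a, chr14:51256063-51256362, minus strand: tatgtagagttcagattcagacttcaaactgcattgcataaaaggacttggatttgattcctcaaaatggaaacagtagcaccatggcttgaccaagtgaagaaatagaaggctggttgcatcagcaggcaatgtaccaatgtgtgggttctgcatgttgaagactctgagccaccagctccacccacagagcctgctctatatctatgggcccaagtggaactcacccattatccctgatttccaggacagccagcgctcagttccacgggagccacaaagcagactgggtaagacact
Epx, chr11:87875487-87875786, minus strand: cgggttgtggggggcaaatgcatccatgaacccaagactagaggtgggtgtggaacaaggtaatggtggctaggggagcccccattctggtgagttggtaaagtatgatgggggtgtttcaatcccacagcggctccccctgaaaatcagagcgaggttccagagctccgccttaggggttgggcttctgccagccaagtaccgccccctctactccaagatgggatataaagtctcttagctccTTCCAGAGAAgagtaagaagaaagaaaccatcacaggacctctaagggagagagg
Ccr3, chr9:124021721-124022020, plus strand: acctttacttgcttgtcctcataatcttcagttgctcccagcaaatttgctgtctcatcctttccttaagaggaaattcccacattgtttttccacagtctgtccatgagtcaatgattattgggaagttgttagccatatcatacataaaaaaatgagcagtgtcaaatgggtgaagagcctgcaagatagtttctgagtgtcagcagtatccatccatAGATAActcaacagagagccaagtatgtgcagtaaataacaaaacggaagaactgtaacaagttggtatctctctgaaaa
Il5ra, chr6:106748988-106749287, minus strand: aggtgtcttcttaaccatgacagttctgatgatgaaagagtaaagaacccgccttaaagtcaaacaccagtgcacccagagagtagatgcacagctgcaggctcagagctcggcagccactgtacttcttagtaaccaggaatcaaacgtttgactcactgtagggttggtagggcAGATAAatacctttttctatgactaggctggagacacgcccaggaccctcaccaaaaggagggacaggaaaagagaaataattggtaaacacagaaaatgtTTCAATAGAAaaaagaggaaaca

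Epx held 1 STAT6-type match, at position -5 relative to the start. Il5ra held 1 STAT6-type match at position 27 and 1 GATA-type match at position -74, and Ccr3 held 1 GATA-type match at position -30. Rnase2a, Siglecf, Ear1 and Ear2 held neither. Of 32851 mouse promoters of this length, 6.95% held the STAT6-type letters and 11.2% the GATA-type word, and the 2 motifs share no match in these windows. The matches are descriptions of letters only.

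Values are log2 signals as the authors deposited them, and a difference of 1 is a doubling on that scale. Array means fell into separate ranges, 7.37 to 7.40 in BALB/c, 8.02 to 8.07 in B-cell deficient, 7.43 to 7.48 in C57BL/6 with crofelemer and 7.48 to 7.51 in C57BL/6 mice. Levels were therefore not tested between strains, and in comparisons of crofelemer with none the drug and any difference in array processing cannot be told apart. In whole lung, more eosinophils and more RNA per cell cannot be told apart either. The 4 measured markers of B cells (Ms4a1, Cd79a, Cd79b, Pax5) had mean levels of 4.66 to 5.46 on the B-cell deficient arrays, against 7.24 to 9.05 on the C57BL/6 arrays without crofelemer.

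Some of the 8 measured genes were higher with MDI in each strain or genotype not given crofelemer, in different numbers. In BALB/c mice 2 of the 8 rose, the granule gene Rnase2a and the eotaxin Ccl11, and none fell. Of all probe sets, 0.261% rose and 0.0405% fell there. The BALB/c call of Ccl11 ended when any 1 BALB/c array was left out. In B-cell deficient mice all 8 measured genes rose, against 16.2% of all probe sets higher and 20.7% lower (36.9% in either direction). Among C57BL/6 mice 6 of the 8 rose (Rnase2a, Prg2, Ccr3, Il5ra, Ccl11 and Ccl24) and none fell, against 5.30% of all probe sets higher and 9.23% lower. These 6 stayed called without array 14. In mice given crofelemer none of the 8 was called, against 0.0360% of probe sets higher and 0.0180% lower (0.0540% in either direction). The median difference of the 8 genes was 0.46, 2.78, 0.58 and 1.87 in BALB/c, B-cell deficient, crofelemer-treated and C57BL/6 mice, and the median of all probe sets lay between -0.06 and 0.01. Calls are at an adjusted p under 0.05 from limma, adjusted over all 22206 probe sets.

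**Figure D1:**
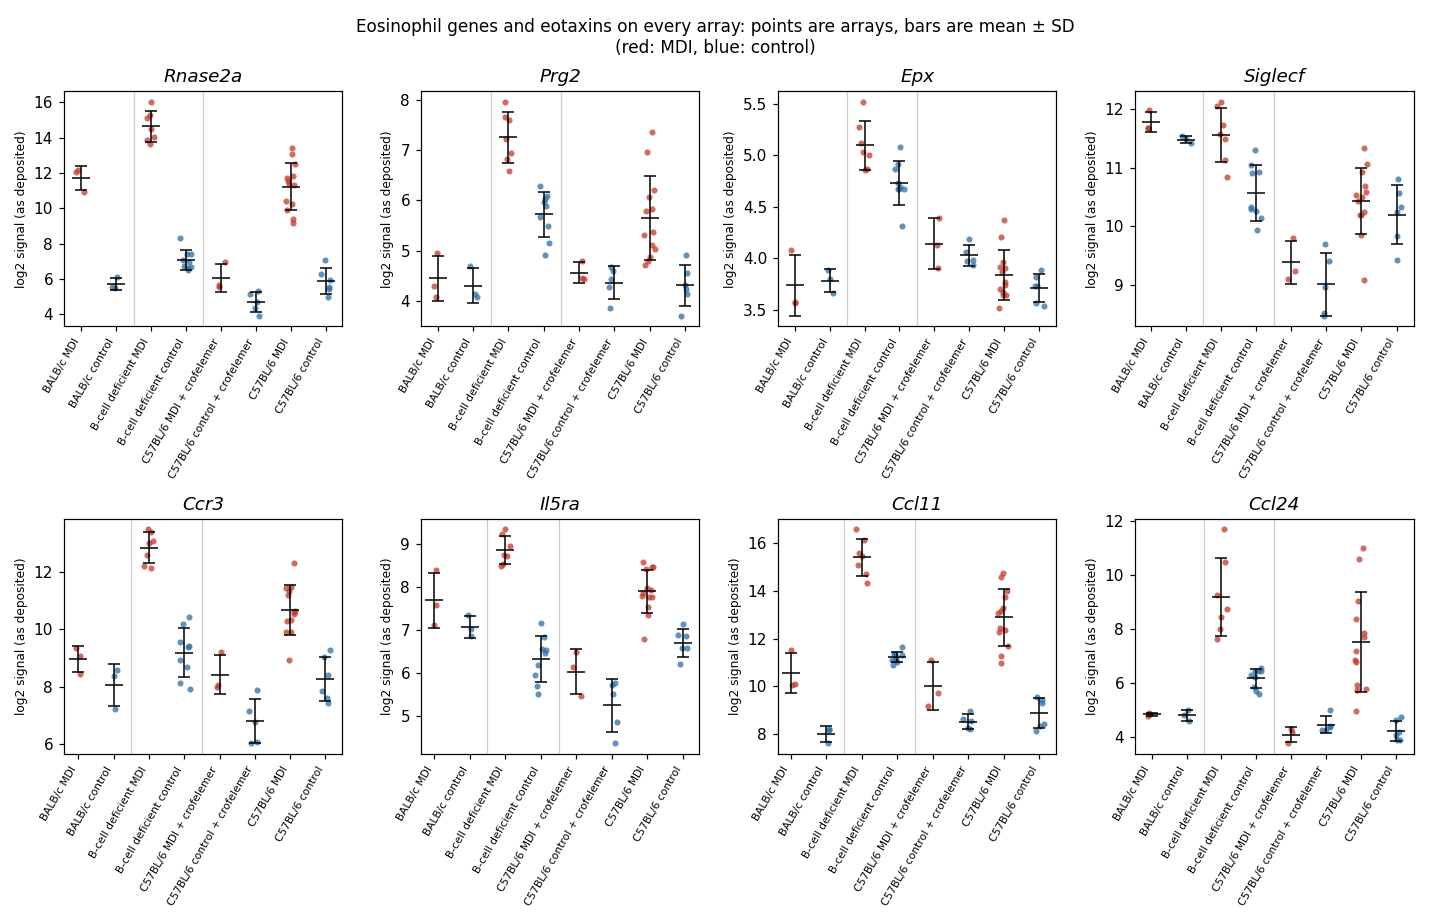
Log2 signal of the 8 measured genes on each of 49 arrays (points), with group mean ± SD (bars); red points are MDI arrays and blue points control arrays, and each MDI group stands left of its control. Rnase2a of MDI arrays lies above all control arrays in each pair, while Epx stays between 3.51 and 5.52 throughout; levels are to be compared within a strain or genotype only.

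Rnase2a encodes a ribonuclease of the eosinophil-associated family, and its protein has been described as an attractant of macrophages. In BALB/c mice it read 12.03, 12.15 and 10.90 on MDI arrays, against 6.12, 5.55 and 5.49 on control arrays. B-cell deficient MDI arrays ran from 13.66 to 16.03 (median 14.49) and their controls from 6.51 to 8.34 (median 6.97). In C57BL/6 mice the MDI arrays ran from 9.17 to 13.43 (median 11.38) and the controls from 4.98 to 7.08 (median 5.74). No overlap was seen in any of these 3 pairs, although the C57BL/6 MDI arrays themselves spread over more than 4 log2 units. The rise was 5.97 ± 0.69 (log2 difference ± SE; 62.8-fold; adjusted p = 4.83e-08) in BALB/c, 7.56 ± 0.43 (188-fold; adjusted p = 9.33e-19) in B-cell deficient and 5.33 ± 0.42 (40.3-fold; adjusted p = 5.65e-14) in C57BL/6 mice. By p-value Rnase2a stood at rank 1 of all probe sets in B-cell deficient mice, rank 9 in BALB/c and rank 11 in C57BL/6 mice.

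The rise of Rnase2a was larger in B-cell deficient than in C57BL/6 mice. The difference between the 2 effects was 2.22 ± 0.60 (adjusted p = 0.00761), and 20.3% of all probe sets were called for such a difference, 9.27% of all probe sets in the same direction. Of the 8 genes 2 were called so (Rnase2a and Il5ra). The call ended without the 4 B-cell deficient controls whose interquartile range of signals was under 4.5 (2.06 ± 0.67, adjusted p = 0.0721). Between BALB/c and C57BL/6 mice the effects differed by 0.64 ± 0.81 (95% interval -0.99 to 2.27, adjusted p = 0.911).

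Rnase2a belongs to a family of related ribonuclease genes, and whether relatives add to its signal was not tested. Relatives on the array had smaller differences. Ear6 rose by 1.86 ± 0.31 in B-cell deficient and 1.13 ± 0.30 in C57BL/6 mice (adjusted p = 6.06e-06 and 0.00714), and its difference in BALB/c mice was 0.13 ± 0.50 (adjusted p = 0.999). Ear10 rose by 1.14 ± 0.19 and 0.99 ± 0.19 in B-cell deficient and C57BL/6 mice (adjusted p = 8.33e-06 and 1.65e-04). Ear14 was not called, with differences of 0.03 ± 0.16 and 0.22 ± 0.16 (adjusted p = 0.915 and 0.397). Rnase2b, which was added after its values were seen, ran from 5.46 to 7.41 on B-cell deficient MDI arrays, against 4.23 to 4.58 on their controls.

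The classical granule proteins answered unevenly. Prg2 encodes the major basic protein of the granule core. Prg2 ran from 6.58 to 7.96 (median 7.22) on B-cell deficient MDI arrays and from 4.92 to 6.28 (median 5.89) on their controls, with no overlap. Of the 8 genes 6 had no overlap in B-cell deficient mice, with MDI higher, as had 4.67% of all probe sets, and 2.36% had none with MDI lower. On C57BL/6 arrays it ran from 4.72 to 7.36 (median 5.38) with MDI and from 3.71 to 4.92 (median 4.29) without, and 10 of 13 MDI arrays lay above all controls. Prg2 rose by 1.53 ± 0.27 (adjusted p = 1.51e-05) in B-cell deficient and by 1.33 ± 0.26 (adjusted p = 2.75e-04) in C57BL/6 mice, where 5 of the 6 controls lay below the lower quartile of their array. BALB/c MDI arrays read 4.09, 4.96 and 4.30, against 4.14, 4.70 and 4.09 on BALB/c controls. These overlapped, and the difference was 0.14 ± 0.43 (adjusted p = 0.999).

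Epx, which encodes the eosinophil peroxidase, stayed near the low end of the arrays. It lay below the lower quartile of its array on 48 of 49 arrays. B-cell deficient MDI arrays ran from 4.86 to 5.52 (median 5.03) and their controls from 4.31 to 5.08 (median 4.69), and 3 of the 7 MDI arrays lay above all controls. Epx rose by 0.36 ± 0.11 there (1.29-fold, adjusted p = 0.00773), and within the 1 block of consecutive deposited records that holds both groups its difference was 0.45 ± 0.16 (adjusted p = 0.0539). In C57BL/6 mice MDI arrays ran from 3.51 to 4.37 and controls from 3.53 to 3.88, and the difference was 0.13 ± 0.11 (adjusted p = 0.482). In BALB/c it was -0.04 ± 0.18 (adjusted p = 0.999). Prg3, a homologue of major basic protein, rose by 0.36 ± 0.12 in C57BL/6 mice (adjusted p = 0.0431), and its difference was -0.05 ± 0.13 in B-cell deficient mice (adjusted p = 0.803). Prg3 lay below the lower quartile on 46 of 49 arrays.

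The receptor genes Ccr3 and Il5ra rose in B-cell deficient and C57BL/6 mice, and Siglecf in B-cell deficient mice. Ccr3, the receptor of the eotaxins, ran from 12.14 to 13.49 (median 13.03) on B-cell deficient MDI arrays and from 7.93 to 10.43 (median 9.39) on their controls. It ran from 8.93 to 12.30 (median 10.60) on C57BL/6 MDI arrays and from 7.44 to 9.28 (median 8.13) on C57BL/6 controls. The B-cell deficient groups did not overlap, and 12 of 13 C57BL/6 MDI arrays lay above all their controls. The rise was 3.67 ± 0.36 (12.7-fold, adjusted p = 3.83e-11) and 2.41 ± 0.35 (5.32-fold, adjusted p = 2.91e-06) in B-cell deficient and C57BL/6 mice. BALB/c MDI arrays read 8.45, 9.34 and 9.07, against 7.21, 8.59 and 8.38 on BALB/c controls, and these overlapped (0.89 ± 0.58, adjusted p = 0.999).

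Il5ra encodes the alpha chain of the IL-5 receptor, which eosinophils use for maturation and survival. It ran from 8.49 to 9.35 (median 8.76) on B-cell deficient MDI arrays and from 5.51 to 7.17 (median 6.46) on their controls, with no overlap. In C57BL/6 mice it ran from 6.80 to 8.59 (median 7.87) with MDI and from 6.20 to 7.14 (median 6.71) without, and 12 of 13 MDI arrays lay above all controls. Il5ra rose by 2.55 ± 0.23 (adjusted p = 3.31e-12) in B-cell deficient and by 1.20 ± 0.23 (adjusted p = 1.63e-04) in C57BL/6 mice. The difference between these 2 effects was 1.35 ± 0.32 (adjusted p = 0.00298), and 1.02 ± 0.33 (adjusted p = 0.0716) without the 4 B-cell deficient controls of narrow spread. For Ccr3 the same comparison gave 1.25 ± 0.50 (adjusted p = 0.0664), with a 95% interval of 0.25 to 2.26. In BALB/c mice Il5ra read 7.12, 8.39 and 7.58 with MDI, against 7.36, 7.02 and 6.85 without, and the groups overlapped (0.62 ± 0.37, adjusted p = 0.999).

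Siglecf encodes a sialic acid-binding receptor that mouse eosinophils share with alveolar macrophages. It ran from 10.83 to 12.12 (median 11.57) on B-cell deficient MDI arrays and from 9.93 to 11.29 (median 10.32) on their controls, and 5 of 7 MDI arrays lay above all controls. Siglecf rose by 0.99 ± 0.23 there (adjusted p = 7.12e-04), and by 0.66 ± 0.26 without the 4 controls of narrow spread (adjusted p = 0.0715, no call). On the C57BL/6 MDI arrays it ran from 9.09 to 11.34, and on the controls from 9.42 to 10.81 (0.23 ± 0.23, adjusted p = 0.553). BALB/c MDI arrays read 11.67, 11.98 and 11.68, all above BALB/c controls at 11.48, 11.42 and 11.53, yet the difference was not called (0.30 ± 0.37, adjusted p = 0.999). Groups of BALB/c mice did not overlap, with MDI higher, for 3 of the 8 genes (Rnase2a, Siglecf and Ccl11) and for 7.48% of all probe sets, while 6.83% did not overlap with MDI lower.

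Of 10 markers of alveolar macrophages, 7 rose in B-cell deficient mice, 1 in BALB/c mice, and 3 rose and 1 fell in C57BL/6 mice. Of all probe sets, 16.2%, 0.261% and 5.30% rose in that order, and 20.7%, 0.0405% and 9.23% fell. The mean level of that list ran from 11.15 to 11.60 on B-cell deficient MDI arrays and from 10.25 to 11.41 on their controls. In C57BL/6 mice it ran from 10.74 to 11.54 with MDI and from 10.49 to 11.52 without. Of 8 measured markers of interstitial macrophages, 5, 6 and 6 rose in BALB/c, B-cell deficient and C57BL/6 mice and Lyve1 fell in the last 2, among the higher ones the complement gene C1qb (by 1.99 ± 0.33, 2.40 ± 0.20 and 1.66 ± 0.20). The mean level of these 8 ran from 9.65 to 9.96, 10.23 to 11.00 and 9.34 to 10.54 on MDI arrays, against 8.16 to 8.71, 8.85 to 9.47 and 8.88 to 9.36 on the controls of the same 3 strains in that order. The part of these cells in the signal of Rnase2a, Siglecf and the eotaxins was not tested.

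Eotaxins are chemokine ligands of CCR3, and both rose in B-cell deficient and C57BL/6 mice, while Ccl11 alone of the 2 was called in BALB/c mice. Ccl11 (eotaxin 1) read 10.09, 11.53 and 10.04 on BALB/c MDI arrays, against 8.21, 7.61 and 8.16 on BALB/c controls. It ran from 14.31 to 16.57 (median 15.47) on B-cell deficient MDI arrays and from 10.91 to 11.66 (median 11.21) on their controls. On C57BL/6 MDI arrays it ran from 10.97 to 14.74 (median 13.06), against 8.15 to 9.56 (median 8.86) on C57BL/6 controls. None of these 3 pairs overlapped. Ccl11 rose by 2.56 ± 0.61 (5.90-fold, adjusted p = 0.0392) in BALB/c, by 4.17 ± 0.38 (18.0-fold, adjusted p = 3.31e-12) in B-cell deficient and by 4.02 ± 0.37 (16.2-fold, adjusted p = 1.05e-11) in C57BL/6 mice. The BALB/c call ended without any 1 of the 6 arrays, with differences from 2.07 to 2.82 and adjusted p from 0.0578 to 0.551, and with quantile normalization (2.34, adjusted p = 0.112).

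Ccl24 (eotaxin 2) is made largely by macrophages. It read 4.85, 4.80 and 4.90 on BALB/c MDI arrays, against 5.00, 4.59 and 4.82 on BALB/c controls. B-cell deficient MDI arrays ran from 7.62 to 11.69 (median 8.75) and their controls from 5.61 to 6.55 (median 6.32). C57BL/6 MDI arrays ran from 4.97 to 11.01 (median 7.20), the widest spread of any group for this gene, and C57BL/6 controls from 3.89 to 4.75 (median 4.13). The BALB/c groups overlapped and the other pairs did not. In all, 3 of the 8 genes (Rnase2a, Ccl11 and Ccl24) had no overlap in C57BL/6 mice, against 0.459% of all probe sets with MDI higher and 0.617% with MDI lower. Ccl24 rose by 3.00 ± 0.54 (8.00-fold, adjusted p = 2.37e-05) in B-cell deficient and by 3.29 ± 0.53 (adjusted p = 1.61e-05) in C57BL/6 mice, and its difference in BALB/c mice was 0.05 ± 0.87 (adjusted p = 0.999). The BALB/c arrays themselves ran only from 4.59 to 5.00, and that SE takes in the spread of all groups. Ccl24 lay below the lower quartile of its array on 5 of the 6 C57BL/6 controls and on none of the 13 C57BL/6 MDI arrays, so the size of the rise in C57BL/6 mice rests on control values near the low end. Set against the effect in C57BL/6 mice, that of BALB/c mice differed by -3.24 ± 1.02 (95% interval -5.29 to -1.20), which passed at an unadjusted p of 0.00251 and not after adjustment (adjusted p = 0.334). No member was called for that difference by limma (0.0270% of all probe sets were, 0.0135% in each direction), and 4 of 8 had an unadjusted p under 0.05, as did 1737 of all 22206 probe sets.

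**Figure D2:**
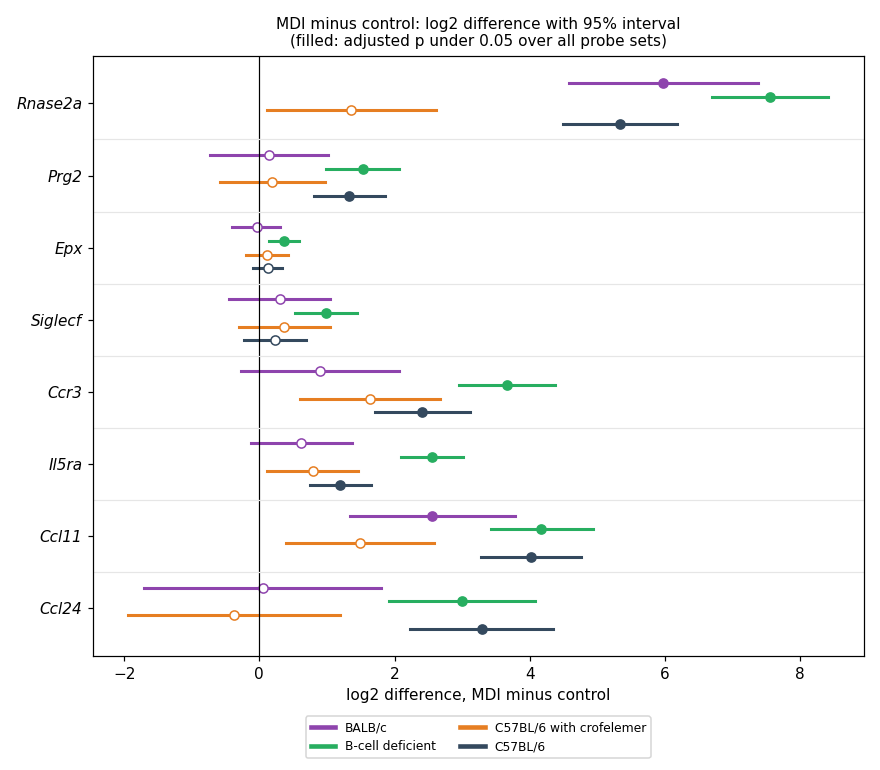
Log2 difference of MDI minus control for the 8 measured genes (points) with 95% intervals (lines) in BALB/c, B-cell deficient, crofelemer-treated C57BL/6 and C57BL/6 mice; filled points have an adjusted p under 0.05 over all probe sets. Rnase2a lies between 5.33 and 7.56 in the mice without crofelemer and at 1.36 with it, while Ccl24 in BALB/c mice lies at 0.05.

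Most of a list of 6 other chemokines were also higher with MDI. Whether each of them binds CCR3 was not tested. In BALB/c mice 4 rose (Ccl6, Ccl8, Ccl9 and Ccl12), while Ccl5 and Ccl7 were not called. In B-cell deficient mice 5 rose (all but Ccl7) and in C57BL/6 mice 5 (all but Ccl5), and none fell. Of all probe sets, 0.261%, 16.2% and 5.30% rose in that order. Ccl8, a monocyte chemoattractant, rose by 5.90 ± 0.62, 4.92 ± 0.38 and 5.09 ± 0.38 in BALB/c, B-cell deficient and C57BL/6 mice (adjusted p = 3.99e-09, 4.90e-14 and 7.68e-15). Ccl12 rose by 2.40 ± 0.31, 1.96 ± 0.19 and 1.37 ± 0.19 in the same order. Ccl5 rose in B-cell deficient mice (1.60 ± 0.21, adjusted p = 9.12e-08), with a difference of -0.47 ± 0.21 in C57BL/6 mice (adjusted p = 0.128), and the effects differed by 2.07 ± 0.30 (adjusted p = 3.77e-05).

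Some genes that drive eosinophil production and priming rose too. Of 13 measured, none was called in BALB/c mice, 5 rose in B-cell deficient mice, and 6 rose and 1 (Gata2) fell in C57BL/6 mice. Of all probe sets, 0.261%, 16.2% and 5.30% rose in that order, and 0.0405%, 20.7% and 9.23% fell. In B-cell deficient mice the share of the list called is near that of all probe sets called in either direction, 36.9%. Il4 rose by 2.67 ± 0.23 (adjusted p = 5.00e-13) in B-cell deficient and by 1.20 ± 0.22 (adjusted p = 1.25e-04) in C57BL/6 mice, and Il33, an epithelial alarmin, by 1.29 ± 0.26 and 1.78 ± 0.25 (adjusted p = 9.79e-05 and 1.48e-06). Cebpe, a transcription factor of granulocyte maturation, rose by 1.14 ± 0.16 and 0.53 ± 0.16 (adjusted p = 4.31e-07 and 0.0201). Il5 itself was not called, with -0.17 ± 0.28, -0.20 ± 0.17 and 0.05 ± 0.17 in BALB/c, B-cell deficient and C57BL/6 mice (adjusted p = 0.999, 0.377 and 0.893). The list medians were 0.12, 0.30 and 0.36, against -0.01, -0.06 and 0.01 over all probe sets.

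Of 11 other measured eosinophil genes, none was called in BALB/c mice, 7 rose in B-cell deficient mice and 5 rose in C57BL/6 mice. Of all probe sets, 0.261%, 16.2% and 5.30% rose in that order. Alox15, a lipoxygenase of eosinophils and alternatively activated macrophages, rose by 4.66 ± 0.33 and 3.59 ± 0.32 in B-cell deficient and C57BL/6 mice (adjusted p = 1.56e-15 and 4.13e-12). Adgre1, the F4/80 antigen of macrophages and eosinophils, rose by 1.75 ± 0.18 and 0.76 ± 0.18 (adjusted p = 1.16e-10 and 0.00178). Of 10 type 2 target genes of airway and macrophages, 6, 9 and 10 rose in BALB/c, B-cell deficient and C57BL/6 mice, with list medians of 3.25, 3.38 and 2.74.

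Crofelemer was associated with lower eosinophil genes in MDI-exposed mice. Of the 8 measured genes, 7 were lower in MDI-exposed mice given crofelemer than in C57BL/6 MDI mice, against 17.5% of all probe sets called lower (32.6% in either direction), and Epx was not called. The median difference was -2.07, against 0.04 over all probe sets. Rnase2a read 5.56, 5.63 and 6.97 on the MDI with crofelemer arrays, all below the lowest C57BL/6 MDI array at 9.17. Ccl24 read 4.20, 3.77 and 4.32 (lowest C57BL/6 MDI array 4.97), and Il5ra 6.14, 5.46 and 6.48 (lowest C57BL/6 MDI array 6.80). These 3 genes did not overlap between the groups, as 8.87% of all probe sets did not in this direction, and the other 5 overlapped.

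The largest of these differences was that of Rnase2a, which fell by 5.16 ± 0.54 (adjusted p = 7.32e-11). Ccl24, below the lower quartile on all 3 MDI with crofelemer arrays, fell by 3.43 ± 0.68 (adjusted p = 7.33e-05) and Ccl11, which read 9.18, 9.74 and 11.12 with crofelemer, fell by 2.87 ± 0.48 (adjusted p = 3.38e-06). Among receptors, Ccr3 (7.99, 8.06 and 9.21) fell by 2.26 ± 0.46, Il5ra by 1.87 ± 0.29 and Siglecf (9.24, 9.11 and 9.80) by 1.05 ± 0.29 (adjusted p = 8.58e-05, 9.51e-07 and 0.00397). Prg2 (4.44, 4.45 and 4.80) fell by 1.09 ± 0.34 (adjusted p = 0.0103), and Epx (4.39, 3.90 and 4.13) had a difference of 0.30 ± 0.14 (adjusted p = 0.0872). A fit with the replicate number as a block holds only the 6 of 16 arrays whose number both groups share. There Siglecf was not called (-0.61 ± 0.29, adjusted p = 0.239), the other 6 of the 7 genes were called lower, and the count over all probe sets was 2148, against 7232 with all arrays. The same 6 arrays without the block, an alternative added after seeing the data, gave -0.61 ± 0.37 for Siglecf (adjusted p = 0.406), 5 genes called lower, with Prg2 not called (-1.40 ± 0.42, adjusted p = 0.0623), and 1599 probe sets. The call of Prg2 also ended without MDI with crofelemer array 1 (-1.03, adjusted p = 0.0616) and with only the compared arrays in the fit (-1.09, adjusted p = 0.0511).

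Receptor genes were lower with crofelemer also in control mice, which received no MDI-GSH. Of the 8 genes 3 were called lower there, against 21.4% of all probe sets, so the share of members is near the background, and 1 was called higher, against 17.6% (39.0% in either direction). Il5ra read 4.35, 5.75, 4.86, 5.72 and 5.51 on control arrays with crofelemer, against 6.20 to 7.14 (median 6.71) on C57BL/6 controls, and fell by 1.47 ± 0.28 (adjusted p = 2.35e-05). Ccr3 (6.04, 6.77, 6.08, 7.87 and 7.15) fell by 1.48 ± 0.43 (adjusted p = 0.00467) and Siglecf (8.96, 8.48, 9.41, 8.52 and 9.69) by 1.19 ± 0.28 (adjusted p = 4.72e-04). Il5ra did not overlap with its C57BL/6 controls, as 12.7% of all probe sets did not in that direction, while for Ccr3 and for Siglecf 4 of 5 arrays lay below all controls.

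Among the 8 genes, the eotaxins and the granule genes other than Epx were not called for crofelemer without MDI. Ear10, a relative of Rnase2a outside the 8, was called lower there, as were 21.4% of all probe sets. Its groups did not overlap, as those of 12.7% of all probe sets did not in that direction. Ccl11 read 8.54, 8.62, 8.25, 8.23 and 8.98 with crofelemer, a difference of -0.34 ± 0.45 (adjusted p = 0.581). Ccl24 read 4.41, 4.27, 4.39, 4.25 and 5.02 (0.23 ± 0.65, adjusted p = 0.809). Ccl24 lay below the lower quartile of its array on 4 of these 5 arrays and on 5 of the 6 C57BL/6 controls, so a fall may not be measurable there. Rnase2a read 4.71, 4.36, 3.91, 5.16 and 5.32 with crofelemer, 3 of these 5 below the lower quartile, a difference of -1.19 ± 0.51 (adjusted p = 0.0609). Prg2 differed by 0.05 ± 0.32 (adjusted p = 0.914). Epx rose by 0.32 ± 0.13 (adjusted p = 0.0489), with all 5 arrays above all controls as 7.60% of probe sets were, and that call ended without any of 9 of the 11 arrays.

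**Figure D3:**
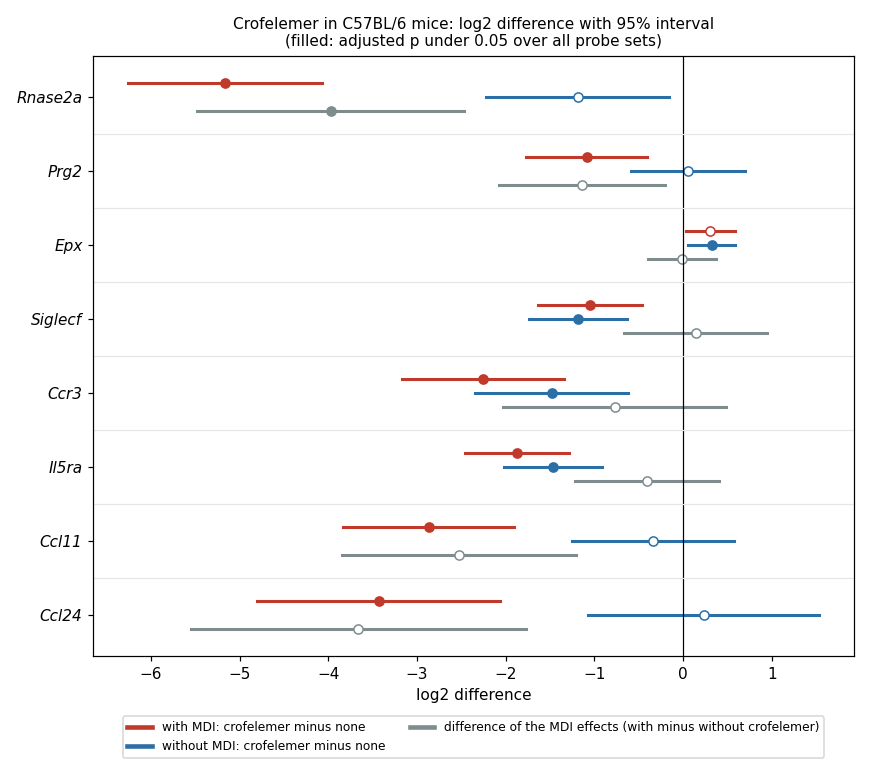
Log2 difference of crofelemer minus none in C57BL/6 mice with MDI (red) and without MDI (blue), and the difference of the MDI effects, with minus without crofelemer (grey), for the 8 measured genes with 95% intervals; filled points have an adjusted p under 0.05 over all probe sets. Rnase2a, Ccl11 and Ccl24 lie at -5.16, -2.87 and -3.43 with MDI and at -1.19, -0.34 and 0.23 without, while Siglecf, Ccr3 and Il5ra are below 0 in both. Without MDI, Ccl24 lay near the low end of most arrays of both groups.

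With crofelemer none of the 8 genes was called for MDI, while 0.0540% of all probe sets were (0.0360% higher), among them the type 2 target Clca1 (7.86 ± 0.97, adjusted p = 2.77e-06). Rnase2a differed by 1.36 ± 0.62 (MDI minus control, adjusted p = 0.568), Ccl11 by 1.49 ± 0.55 (adjusted p = 0.402), Ccr3 by 1.64 ± 0.52 (adjusted p = 0.290) and Ccl24 by -0.37 ± 0.78 (adjusted p = 0.954). Although none of the 8 passed limma's adjusted test, 4 had an unadjusted p under 0.05 (1826 of all probe sets did), and for Rnase2a, Ccr3 and Ccl11 all 3 MDI arrays lay above all 5 controls, as 1.80% of probe sets did (1.16% had all MDI arrays below).

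The MDI effect with crofelemer minus that without was -3.97 ± 0.75 for Rnase2a (adjusted p = 0.00578), the 1 member called, against 0.423% of all probe sets (0.243% lower). For Ccl24 it was -3.66 ± 0.94 (adjusted p = 0.0590) and for Ccl11 -2.53 ± 0.66 (adjusted p = 0.0638). For Siglecf it was 0.14 ± 0.40 (95% interval -0.67 to 0.94), for Il5ra -0.41 ± 0.40 (-1.22 to 0.40) and for Ccr3 -0.77 ± 0.63 (-2.03 to 0.48). The Rnase2a call ended when only the compared arrays entered the fit (adjusted p = 0.0577). It was also not called on the 12 arrays whose replicate number all 4 groups share, with the number as a block (-4.04 ± 0.82, adjusted p = 0.187) or without it (-4.04 ± 0.79, adjusted p = 0.10). In the fit over all groups, Ccl24 and Ccl11 passed without MDI array 14, whose source name says control (adjusted p = 0.0377 and 0.0265). This difference, the crofelemer differences and the MDI effect in C57BL/6 mice share arrays, so they are not independent of each other.

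Other genes moved with crofelemer, and their part in these results was not tested. Of all probe sets, 17.5% were called lower and 15.0% higher with crofelemer in MDI-exposed mice (32.6% in either direction). Without MDI 21.4% were lower and 17.6% higher (39.0% in either direction). All 4 measured B-cell markers fell, Ms4a1 by 2.35 ± 0.27 with MDI and by 2.32 ± 0.25 without (adjusted p = 5.67e-10 and 1.04e-10). The mean of the 4 ran from 5.82 to 6.25 with MDI and crofelemer, against 7.24 to 9.05 with MDI alone, and from 6.11 to 6.33 with crofelemer alone, against 7.78 to 8.88 in C57BL/6 controls. Of 10 alveolar macrophage markers, Krt79 and Plet1 fell in both (Krt79 by 2.49 ± 0.22 and 2.86 ± 0.21). Mrc1 also fell and Marco rose with crofelemer in MDI-exposed mice, and Atp6v0d2 rose without MDI. The other 6 and 7 were not called, and the list medians were 0.03 and -0.11. The mean of all 10 ran from 10.63 to 11.17 with MDI and crofelemer, against 10.74 to 11.54 with MDI alone. Of 8 interstitial macrophage markers, 2 rose (C1qa by 0.77 ± 0.29 and C1qc) and 3 fell (Pf4, Folr2 and Lyve1) with crofelemer in MDI-exposed mice, and without MDI 5 rose (C1qa by 1.78 ± 0.27, C1qb, C1qc, Ms4a7 and Cd163) and 2 fell (Pf4 and Lyve1). Their mean ran from 9.45 to 9.91 with MDI and crofelemer, against 9.34 to 10.54 with MDI alone, and from 9.25 to 9.50 with crofelemer alone, against 8.88 to 9.36 in C57BL/6 controls. Of 8 neutrophil markers, 1 rose (Ltf) and 1 fell (Retnlg by 2.76 ± 0.51) with crofelemer in MDI-exposed mice. Without MDI 4 fell with crofelemer (S100a9, Retnlg, Cxcr2 and Csf3r). Of 6 lung tissue markers the same 4 fell with crofelemer in both (Sftpc, Sftpa1, Scgb1a1 and Pecam1), and Cldn18 rose with crofelemer in MDI-exposed mice.

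Beside the 17.5% of all probe sets called lower with crofelemer in MDI-exposed mice (15.0% higher), 9 of 10 type 2 target genes fell there (list median -2.28), Muc5ac by 4.18 ± 0.50 and Ccl17 by 3.44 ± 0.54. Of the 6 other chemokines 3 fell, Ccl8 by 2.11 ± 0.49, and of 11 other eosinophil genes 4 fell, Alox15 by 3.24 ± 0.41. Of the 13 production and priming genes 5 fell, among them Il4 by 1.38 ± 0.29. None of these 4 lists had a gene called higher with crofelemer in MDI-exposed mice. Without MDI (21.4% of all probe sets lower, 17.6% higher), 4 production and priming genes rose (Csf2, Csf2rb, Il3ra and Il33) and 3 fell (Csf2ra, Gata2 and Tslp). Of the 6 other chemokines 3 rose (Ccl7 by 0.91 ± 0.23, Ccl12 and Ccl6) and Ccl5 fell. Of the 11 other eosinophil genes, Adgre1 rose and Ear10 and Cd24a fell without MDI. There 1 type 2 target gene rose (Retnla) and 2 fell (Clca1 and Postn).

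The deposits fell into 3 blocks of consecutive records, which the labels do not call batches. In block 1 alone (12 of 13 C57BL/6 MDI and 4 of 6 control arrays) the MDI effect was 5.52 ± 0.48 for Rnase2a, 3.66 ± 0.64 for Ccl24, 2.31 ± 0.40 for Ccr3, 1.17 ± 0.26 for Il5ra and 1.40 ± 0.30 for Prg2, and these 5 stayed called, as did Ccl11 (adjusted p = 2.37e-09). Block 3 holds 1 MDI array and 2 controls, too few for the lack of a call to say anything, and Rnase2a differed by 3.25 there. In block 2, with 3 of 7 B-cell deficient MDI arrays and all 9 controls, 7 of 8 members were called, Rnase2a at 7.91 ± 0.38 and Ccl11 at 4.56 ± 0.25. In block 1 alone crofelemer with MDI gave -5.33 ± 0.54 for Rnase2a and the same number of members called, 7.

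Among mice that all had MDI, the genes varied together to different degrees. With Epx as anchor, none of 7 relations passed in the 13 C57BL/6 MDI arrays (largest r = 0.68, with Prg2, rho = 0.50; permutation p = 0.0218 and 0.0844, adjusted p = 0.0652 and 0.118) nor in the 7 B-cell deficient MDI arrays. Rnase2a, chosen as anchor after the values were seen, varied in the 13 C57BL/6 MDI arrays with Ccl11 (r = 0.93, rho = 0.90), Prg2 (r = 0.90, rho = 0.87) and Ccl24 (r = 0.90, rho = 0.82). Their permutation p for r were 2.00e-05, 2.00e-05 and 8.00e-05 (2.00e-05 is the smallest that 100000 resamples can give), with adjusted p of 7.00e-05, 7.00e-05 and 1.87e-04 over 7 relations, and for rho adjusted p of 5.60e-04, 9.10e-04 and 0.00187. Without the 2 arrays farthest from the median of Rnase2a, r was 0.89, 0.86 and 0.87, and in block 1 alone 0.91, 0.90 and 0.90.

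The receptor genes did not pass with Rnase2a in the C57BL/6 MDI arrays. Ccr3 had r = 0.55 (rho = 0.54, permutation p = 0.0499 and 0.0593, adjusted p = 0.0699 and 0.0831), Il5ra r = 0.32 (rho = 0.30) and Siglecf r = 0.28 (rho = 0.39). In the 7 B-cell deficient MDI arrays 5 relations passed by an exact permutation test of r, with Prg2 (r = 0.95, rho = 0.89, adjusted p = 0.0194 and 0.0287), Ccl11 (r = 0.87, rho = 0.93, adjusted p = 0.0317 and 0.0287), Siglecf (r = 0.85, rho = 0.89, adjusted p = 0.0317 and 0.0287), Ccl24 (r = 0.87) and Il5ra (r = 0.86), and the last 2 did not pass by rho (0.79 each, adjusted p = 0.0672). Without the 2 farthest arrays r was 0.99, 0.91, 0.97, 0.75 and 0.75 in that order, and the relations with Ccl24 and Il5ra no longer passed. Whether the relation with Siglecf differs between the 2 groups was not tested.

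**Figure D4:**
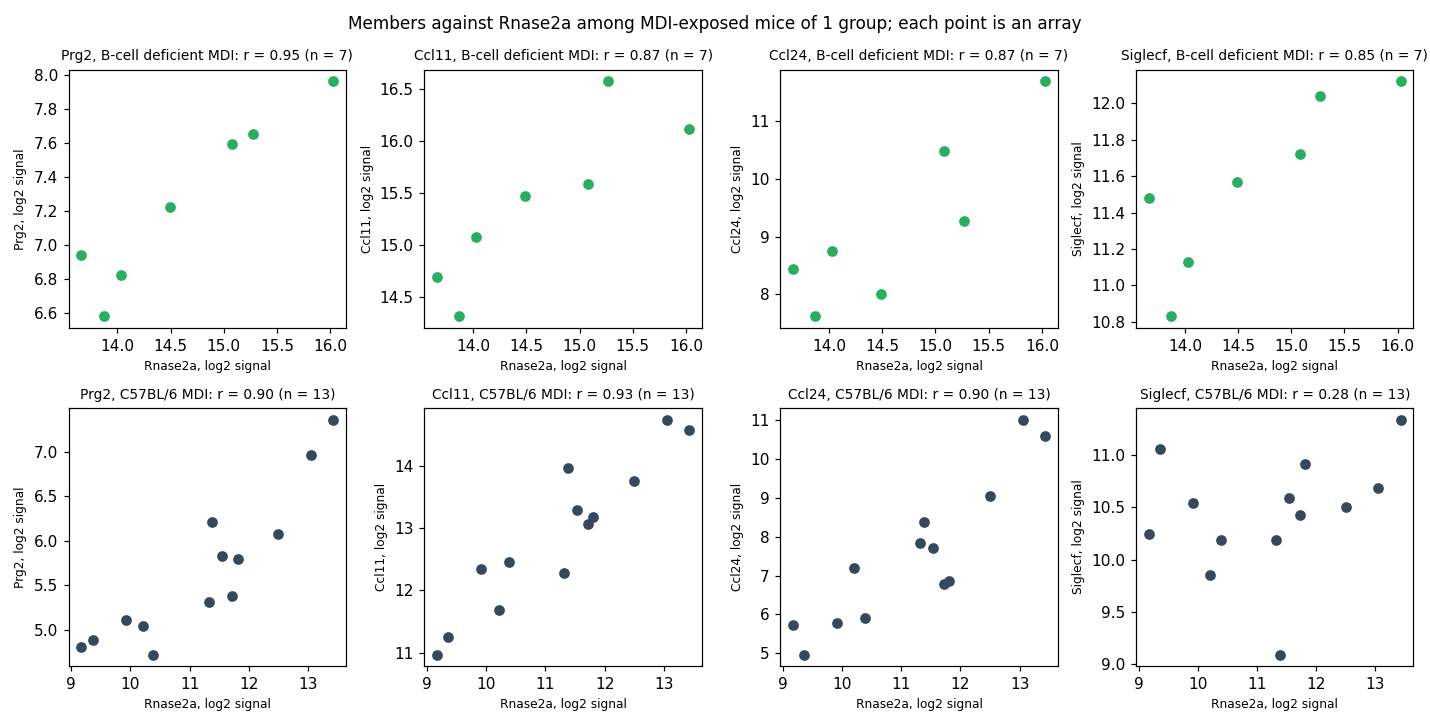
Log2 signal of Prg2, Ccl11, Ccl24 and Siglecf (y axes) against Rnase2a (x axes) on the 7 B-cell deficient MDI arrays (top, green) and the 13 C57BL/6 MDI arrays (bottom, dark); each point is an array. Pearson r is 0.95, 0.87, 0.87 and 0.85 in the top row and 0.90, 0.93, 0.90 and 0.28 in the bottom row.

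Over all 49 arrays, with the mean of each of the 4 strain and drug sets taken off, the gene most like Ccl11 was the anion exchanger Slc26a4 (r = 0.97), followed by Slc5a1, Rnase2a (both 0.96), Ccl8 and Chia1 (both 0.95). Most like Ccl24 were Fxyd4, Fbp1 (both 0.92), Prg2, Ankrd55 (both 0.90) and Arg1 (0.89). Most like Epx were Cebpe (0.72), Oit3 (0.67), Il17rb, Prg2 (both 0.65) and Batf3 (0.64), and Rnase2a stood at rank 163 with r = 0.49. Most like Rnase2a were Slc26a4, Ccl8, C1qb, Ccl11 (all 0.96) and Mmp12 (0.95). These r are over 19505 other symbols, carry the difference between MDI and control arrays in each set, and are given as descriptions.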

How the data were processed

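The authors deposited log2 signals for 22206 probe sets on 51 arrays, with 2 decimals. Per the submitters' processing notes they were made with Transcriptome Analysis Console. Neither its version, its normalization nor the log base is stated there, and the base was taken from the range of the values (1.86 to 20.91). No value was rescaled. Genes were named from the platform annotation, which gives 1 symbol for 19572 probe sets and none for 2634.

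Differences came from limma 3.58.1 in R 4.3.3, with 8 group means over 49 arrays, an intensity trend, and Benjamini-Hochberg adjustment over all probe sets. The fit was tested on simulated data. Correlations used permutation tests (scipy 1.17.1). The members, lists, tests and alternatives were chosen with earlier results of these data known. All 10 listed genes were named whatever their values, and of each list any called gene could be named. For Epx, Ccl11 and Ccl24 the 5 symbols with the highest r were named, and Rnase2a was added after its values were seen. Alternatives were quantile normalization, centring, leaving out dim probe sets, array weights, no intensity trend, only the compared arrays, submission and replicate blocks, and leaving out each array.

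Replicate numbers were checked as pairs by correlating deviations from group means. For crofelemer with MDI the 3 correlations were 0.17, 0.17 and 0.11, all over 0.1, and the blocked values, on the arrays that share a number, are given beside that result, with the same arrays unblocked. In the other comparisons checked, not all correlations were over 0.1. Number 3 of crofelemer with MDI did not match its own partner best. These correlations are small, so they do not show that the numbers pair the arrays.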

Additional observations from a re-analysis of the deposited data

Results flagged for a closer look

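Dixon's test was run on the groups of 5, 6, 7 and 9 arrays (32 combinations of gene and group), and not on the 13 C57BL/6 MDI arrays or the groups of 3. In it, 2 of the 32 combinations had an array far from the others. Chance gives about 1 in 20 combinations, so this count is near what chance gives. Rnase2a read 8.34 on B-cell deficient control array 8, and Ccl24 read 5.02 on C57BL/6 control with crofelemer array 5.

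The MDI effect differed between groups for 3 results. It was larger in B-cell deficient than in C57BL/6 mice for Rnase2a (by 2.22) and Il5ra (by 1.35), as called by limma after adjustment. For that difference 20.3% of all probe sets were called, and both calls ended without the 4 controls of narrow spread. The effect with crofelemer minus that without was -3.97 for Rnase2a, also called (0.423% of all probe sets were). This call ended with only the compared arrays in the fit.

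The 2 arrays with contradictory labels entered no comparison. On the array titled MDI 13, 7 genes lay above the highest C57BL/6 control, namely Rnase2a at 12.01, Epx at 4.32, Prg2 at 5.59, Ccr3 at 12.16, Il5ra at 8.66, Ccl11 at 12.67 and Ccl24 at 6.1. On the array titled MDI with crofelemer 4, 4 genes did, namely Epx at 3.92, Prg2 at 4.98, Ccl11 at 9.91 and Ccl24 at 5.40, while Rnase2a read 6.53 and the highest C57BL/6 control 7.08.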

How the results depend on the processing

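No member's call turned direction. Under the settings other than leaving out 1 array, 670 of 709 member values kept their side of the threshold, 11 gained a call and 28 lost one. Fits with the replicate block hold only arrays that share a number (12 of 19 for MDI in C57BL/6 mice, 6 of 16 for crofelemer with MDI), so blocking and fewer arrays change together. In BALB/c mice the members called numbered 1 with quantile normalization, 1 in block 1 alone, 1 without any 1 array (range 1 to 1) and 2 with only the compared arrays. Probe sets called there were 265 with array weights, 269 with only the compared arrays, 283 with the replicate block, and 29 to 67 with 1 array left out. In C57BL/6 mice probe sets called were 2092 in block 1, 8 in block 3 (members 0, on 3 arrays), 930 with the replicate block and 786 on the same 12 arrays without it. In B-cell deficient mice, leaving out dim probe sets left 5 members tested, all 5 called, and 4289 probe sets, and the count was 4499 with the submission block as a term, 4358 in block 2 alone and 3780 without the 4 controls of narrow spread (added after seeing the data).

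For MDI under crofelemer, probe sets called were 22 with quantile normalization, 4 without dim probe sets, 5 with array weights, 2 in block 1 and 1 to 13 with 1 array left out, and the replicate block called 2 members (Rnase2a 1.73 and Ccr3 2.12). Crofelemer with MDI gave 2148 probe sets with the replicate block and 1599 on the same 6 arrays without it. Crofelemer without MDI gave 0 members and 1273 probe sets in block 3 (1 array against 2). The BALB/c minus C57BL/6 difference gave 3 probe sets without dim probe sets, 183 with array weights, 2 with only the compared arrays, 2 with the replicate block and 3 to 10 with 1 array left out.

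The B-cell deficient minus C57BL/6 difference gave 1878 probe sets without dim probe sets, 2444 with the submission block as a term, and 719 probe sets and 0 members without the 4 narrow controls. It gave 4 members with the replicate block and 2 to 4 with 1 array left out. The difference by crofelemer gave 53 probe sets with array weights, 10 (members 0) with only the compared arrays, 8 in block 1, 4 (members 0) with the replicate block, 4 (members 0) on the same 12 arrays without it, and 20 to 125 with 1 array left out. Members called there were 3 without MDI array 14 and 1 to 3 with 1 array left out. Pairing of arrays by replicate number was not shown for any comparison. The same arrays without the block were added after seeing the data. The relations with Rnase2a in B-cell deficient mice numbered 3 of 5 without the 2 farthest arrays and 3 by rho. Causes were not tested.

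Centring each array on its median moved the share of higher among called probe sets to 49.4% in place of 36.5% for MDI in C57BL/6 mice, to 59.4% in place of 46.1% and 64.8% in place of 45.2% for crofelemer with and without MDI (medians of all probe sets 0.14 and 0.19), to 28.5% in place of 45.7% for B-cell deficient minus C57BL/6 and to 25.7% in place of 42.6% for the difference by crofelemer; quantile normalization moved it to 45.5% in place of 66.7% for MDI under crofelemer. The B-cell deficient minus C57BL/6 fit could not be run within 1 block.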
